A study of Oryza sativa Japonica Group with 4 samples.

Results

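Among the rice regions that gained CHG methylation after treatment of genomic DNA with M.CviP I, 18697 of 283720 (6.59%) already had a CHG methylation level of at least 0.5 in the untreated CK DNA. These heavily CHG-methylated gains were chosen from the list of gains by context and by their CK level alone, so their CHG levels in CK, their CHG levels after M.CviP I and the differences between both describe the choice and were not tested. The level is a fraction, from 0 for no methylated cytosine to 1 for full methylation, averaged over the CHG cytosines of a region. The remaining gains served for comparison in 3 bands of CK level, with 24498 regions at 0.2 to under 0.5, 31925 at 0.05 to under 0.2 and 208600 (73.5%) under 0.05.

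Bisulfite sequencing was carried out on 4 libraries from Nipponbare, a japonica rice cultivar, with 1 library for each of 4 conditions. In the M.CviP I library, 4 μg of purified seedling DNA had been incubated with 8 units of the enzyme and 640 μM S-adenosyl-methionine, the methyl donor, at 37 °C for 1 h, and the CK library was made from DNA without this treatment. In the zebularine library, DNA came from 5-day-old seedlings kept for 5 days with 80 μM zebularine dissolved in DMSO, and its DMSO CK came from seedlings kept with DMSO only. The lists held 1056015 gains after M.CviP I and 189883 losses after zebularine. Since there were no replicates, no difference between treatments could be tested, no SD is available, and a difference between libraries cannot be told apart from the treatment. Intervals given below are 95% intervals over regions (Wilson for shares, order statistics for medians) and cover counting error only. They are too narrow to the extent that neighbouring regions resemble each other.

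In plants, cytosines are methylated in the CG, CHG and CHH contexts, where H stands for A, C or T. CG methylation is copied after replication by MET1, CHG methylation is maintained by chromomethylases such as CMT3 that read histone H3 lysine 9 methylation, and CHH methylation is set by DRM2 with small RNAs or by CMT2. Dense CHG methylation is known from silenced transposons and heterochromatin, where CG methylation is usually high as well. M.CviP I is a viral DNA methyltransferase that methylates the cytosine of GpC. The authors' methods list it under CpG methyltransferases, whereas their results call it a GpC methyltransferase. Since GpC is set by the base before the cytosine and the CHG context by the bases after it, GpC cytosines occur in all 3 contexts. Zebularine is a cytidine analogue that inhibits DNA methyltransferases in growing cells.

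The heavily CHG-methylated gains had a median CHG level of 0.873 in M.CviP I DNA (quartiles 0.827 and 0.909), against 0.651 in CK DNA (quartiles 0.577 and 0.721). The median difference, M.CviP I minus CK, was 0.206, against 0.604 over all CHG gains. The difference was under 0.2 in 46.3% of these regions, against 2.4% of gains with a CK level of 0.2 to under 0.5 and 3.36% of all CHG gains. It was at least 0.3 in only 9.77%, against 66.1% and 89.7% in the same order. The room above a CK level of 0.5 or more is limited, but its part in these shares was not tested. The choice itself sets a floor under the end level, since each region needed 0.5 in CK DNA and the authors' minimum difference of 0.1. The lowest level of the heavily CHG-methylated gains in M.CviP I DNA was 0.6405. Of these regions 31.1% were at 0.9 or more, against 8.95% of all CHG gains. Full methylation, a level of 1, was reached in 64 of them.

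Expressed as the share of the unmethylated remainder in CK that became methylated, the gain lay between those of the intermediate and of the nearly unmethylated regions. The median share was 60.9% in the heavily CHG-methylated gains, 51.01% in gains with a CK level of 0.2 to under 0.5 and 67.7% in gains with a CK level under 0.05. Within the heavily CHG-methylated gains the share was higher in bands of higher CK level. It was 57.6% in the 6040 regions at 0.5 to under 0.6, 60.8% in the 6620 regions at 0.6 to under 0.7, 62.8% in the 5185 regions at 0.7 to under 0.8 and 68.0% in the 852 regions at 0.8 and over. The difference itself ran the other way, with medians of 0.257, 0.212, 0.160 and 0.121 in the same order of bands. The authors' minimum difference of 0.1 bears on both orders, since it allows no CK level above 0.9 and removes small gains from the highest bands first.

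**Figure D1:**
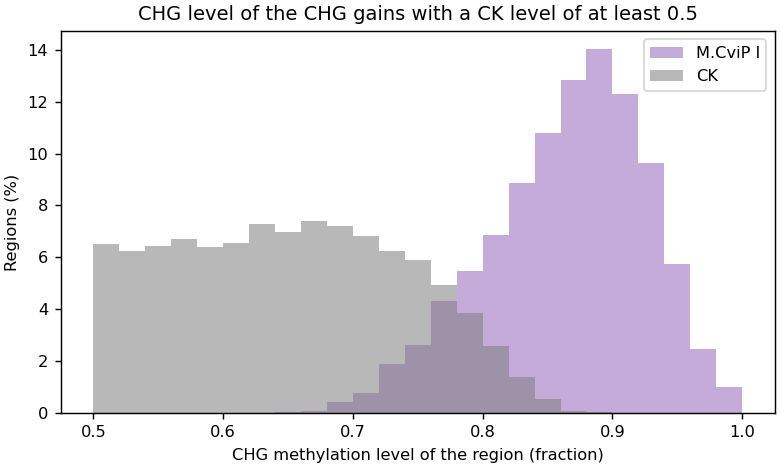
CHG methylation level (x axis, fraction from 0 to 1, bins of 0.02) of the 18697 CHG gains with a CK level of at least 0.5, as a percent of these regions (y axis), in M.CviP I DNA (purple) and CK DNA (grey). CK levels are spread evenly up to about 0.7 with a median of 0.651, and M.CviP I levels form a peak around their median of 0.873.

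The cutoff of 0.5 lay in a continuous distribution. The 621 regions with a CK level of 0.50 to under 0.51 had a median M.CviP I level of 0.780, a median difference of 0.275 and a median length of 463 bp, whereas the 557 regions of 0.49 to under 0.50 just below the cutoff had 0.769, 0.274 and 463 bp. Of the single regions nearest to it with at least 20 cytosines, one at chromosome 3, 15093723 to 15094216, had an M.CviP I level of 0.783 and a CK level of exactly 0.5. One just below it, at chromosome 6, 17693680 to 17694180, had 0.686 in M.CviP I DNA and 0.4998 in CK DNA. All positions are those of the authors' lists, on MSU7.0.

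Heavily CHG-methylated gains were long. Their median length was 476 bp (95% interval 476 to 477, quartiles 406 and 493), against 456 bp for gains with a CK level of 0.2 to under 0.5, 424 bp for those with 0.05 to under 0.2, 305 bp for gains with a CK level under 0.05 and 351 bp for all CHG gains. The caller made no region above 501 bp, and 66.5% of the heavily CHG-methylated gains had at least 450 bp, against 53.1% of the gains with a CK level of 0.2 to under 0.5, 26.6% of those under 0.05 and 33.2% of all CHG gains. Only 7.26% were shorter than 200 bp, against 24.1% of all CHG gains. They also held more CHG cytosines, with a median of 30 per region and 7.04 per 100 bp, against 15 per region and 4.95 per 100 bp over all CHG gains. In gains with a CK level under 0.05 the density was 4.65 per 100 bp, and in those with 0.2 to under 0.5 it was 6.18.

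**Figure D2:**
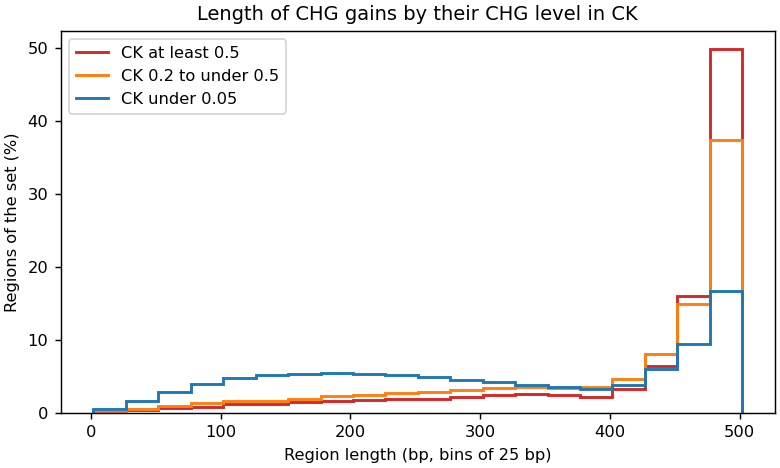
Region length (x axis, bp, bins of 25 bp) as a percent of the regions of each set (y axis), for CHG gains with a CK level of at least 0.5 (red), 0.2 to under 0.5 (orange) and under 0.05 (blue). The red set crowds at the upper limit near 500 bp, with a median of 476 bp, whereas the blue set is spread over all lengths with a median of 305 bp.

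Length and number of cytosines moved with the size of the difference, which bears on the comparison of lengths, because a p-value under 0.01 was required of each region across its cytosines. The 518 heavily CHG-methylated gains with 5 to 9 cytosines had a median difference of 0.327 and a median length of 110 bp. With 20 to 29 cytosines the 5680 regions had a median difference of 0.223 and 470 bp, and with 40 to 91 cytosines the 4031 regions had 0.161 and 490 bp. The part of this selection in the greater length was not tested.

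Nearly all of the heavily CHG-methylated gains lay on a CHH gain of the same M.CviP I list, as CHG gains did in general. A shared base was found for 18440 of 18697 (98.6%, interval 98.5 to 98.8), where the background over all CHG gains was 98.7%, and the CHH gains covered 92.4% of their bases against 93.1% of the bases of all CHG gains. The share is near the background and says nothing about these regions. The 257 without a CHH gain were short, with a median of 156 bp and 11 CHG cytosines, against 477 bp and 30 cytosines in those with one.

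In the CHH gains that shared bases with them, CHH methylation in CK DNA was low, and its median was above that over all CHG gains, 0.0136. Each level is that of whole CHH gains, weighted by shared bases, and is known only where a CHH gain was called. The median CHH level at the heavily CHG-methylated gains was 0.496 in M.CviP I DNA and 0.0520 in CK DNA (95% interval 0.0515 to 0.0524, quartiles 0.0374 and 0.0757), with a median difference of 0.432. Gains with a CHG level under 0.05 in CK had a CHH level of 0.616 in M.CviP I DNA and 0.0105 in CK DNA, with a median difference of 0.599. This contrast did not set dense CHG methylation apart, since gains with a CHG level of 0.05 to under 0.2 in CK, whose median CHG level there was only 0.105, also had a median CHH level of 0.526 in M.CviP I DNA and 0.0505 in CK DNA. Set against the other CHG gains within 1 Mb bins, a comparison added after seeing the data, the median was higher in CK DNA and lower in M.CviP I DNA in all 375 bins that held at least 10 regions of each set. The median difference between both over these bins was 0.0427 for the CHH level in CK DNA and -0.0933 for that in M.CviP I DNA.

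Compared with gains of intermediate CHG level, the CHH level in CK had the same centre and a shorter upper tail. The median was 0.0520 in the heavily CHG-methylated gains and 0.0526 in gains with a CHG level of 0.2 to under 0.5, and it was higher in the heavily CHG-methylated gains in 190 of 375 bins and lower in 185. However, a CHH level of 0.2 or more in CK was found at 432 of the heavily CHG-methylated gains (2.34%, interval 2.13 to 2.57), against 13.1% of the gains of intermediate level (12.7 to 13.5) and 11.5% of the gains with a CHG level of 0.05 to under 0.2. The highest 5% began at 0.153 against 0.297. At the lower end, 46.8% of the heavily CHG-methylated gains had a CHH level under 0.05 in CK and 39.5% had 0.05 to under 0.1, against 48.2% and 21.5% at gains of intermediate CHG level and 90.5% and 4.41% at gains with a CHG level under 0.05.

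Within the heavily CHG-methylated gains, the median CHH level in CK was slightly higher in bands of higher CHG level, whereas its upper tail was longest in the lowest band. The median was 0.0495 at a CHG level of 0.5 to under 0.6, 0.0515 at 0.6 to under 0.7, 0.0530 at 0.7 to under 0.8 and 0.0612 at 0.8 and over, where the share under 0.05 was 29.4% against 50.6% in the lowest of these bands. A CHH level of 0.2 or more was found at 4.17%, 1.62%, 1.19% and 2.25% of the regions in the same order of bands. Across the 18440 regions, the CHG and CHH levels in CK had a Spearman rho of 0.0804 and a Pearson r of -0.0163. The 2 differences, M.CviP I minus CK, had a rho of 0.0945. These regions share libraries and neighbourhoods, and the 2 levels come from reads over partly the same bases.

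**Figure D3:**
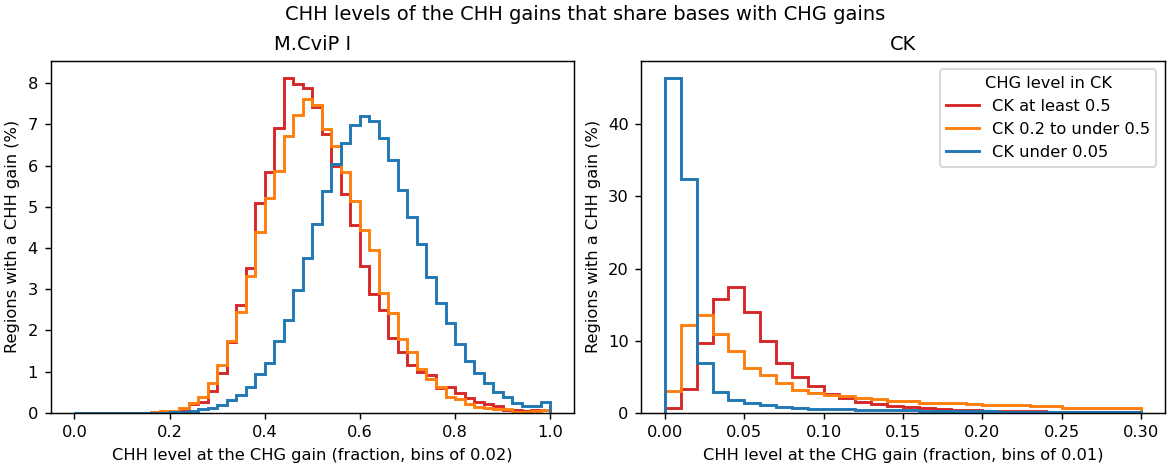
CHH methylation level of the CHH gains that share bases with CHG gains (x axes, fraction), in M.CviP I DNA (left, bins of 0.02) and CK DNA (right, bins of 0.01, drawn up to 0.3), as a percent of the CHG gains with such a CHH gain (y axes), for CHG gains with a CK level of at least 0.5 (red), 0.2 to under 0.5 (orange) and under 0.05 (blue). Red and orange have similar medians in CK, 0.0520 and 0.0526, but orange has the longer tail, and blue lies near 0 in CK and highest in M.CviP I DNA.

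Read from the CHH side, 28721 of 656623 CHH gains shared a base with a heavily CHG-methylated gain. They had a median CHH level of 0.487 in M.CviP I DNA and 0.0507 in CK DNA. The 308036 CHH gains that lay on other CHG gains had 0.583 and 0.0125, whereas the 319866 CHH gains on no CHG gain had 0.447 and 0.0491. The CHH gains at heavily CHG-methylated gains thus lay between these sets in M.CviP I DNA and just above the set without any CHG gain in CK DNA. The CHG level of the regions without a CHG gain is not in the lists.

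The highest CHH levels in CK were found at regions with CHG levels of 0.565 to 0.621 in CK. Among the heavily CHG-methylated gains with at least 20 CHG cytosines, the one with the highest CHH level in CK was at chromosome 5, 26337506 to 26337993, with a CHH level of 0.721 in M.CviP I DNA and 0.571 in CK DNA, and a CHG level of 0.822 in M.CviP I DNA and 0.621 in CK DNA. The next, at chromosome 9, 17067494 to 17067949, had CHH levels of 0.733 in M.CviP I DNA and 0.569 in CK DNA. It also held 1 of the few CG gains, with a CG level of 0.840 in M.CviP I DNA and 0.172 in CK DNA. Neither shared a base with a CG loss after zebularine.

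The 3 regions with the largest CHG difference among those with at least 20 cytosines had CHH levels of 0.194 to 0.475 in CK, but over the 10039 heavily CHG-methylated gains with a difference of at least 0.2 the median was 0.0526, near that of all of them. The region at chromosome 12, 715370 to 715868, with 27 CHG cytosines, had a CHG level of 0.953 in M.CviP I DNA and 0.525 in CK DNA, and a CHH level of 0.631 in M.CviP I DNA and 0.233 in CK DNA. At chromosome 5, 27393832 to 27394319, the CHG level was 0.935 in M.CviP I DNA and 0.514 in CK DNA, and the CHH level was 0.763 and 0.475 in the same order. The next 3 regions had the highest CHG level in CK among those with at least 20 cytosines. Their CHH levels in CK lay on either side of the median of 0.0520. At chromosome 3, 29923237 to 29923737, the CHG level over 49 cytosines was 0.978 in M.CviP I DNA and 0.877 in CK DNA, and the CHH level was 0.575 and 0.0742. At chromosome 4, 26983687 to 26984172, the CHG level was 0.988 in M.CviP I DNA and 0.876 in CK DNA, with a CHH level of 0.6003 and 0.0959, and the CG level of the CG loss there was 0.825 in zebularine DNA and 0.975 in DMSO CK DNA. The other one, at chromosome 6, 8205344 to 8205794, had a CHH level of 0.659 in M.CviP I DNA and 0.0289 in CK DNA.

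CG gains after M.CviP I were rare at the heavily CHG-methylated gains. A shared base was found for 418 (2.24%, interval 2.03 to 2.46), against a background of 33.5% over all CHG gains, for 21.6% of the gains with a CHG level of 0.2 to under 0.5 in CK and for 36.9% of those with 0.05 to under 0.2. The share was lower in each higher band, from 4.92% at 0.5 to under 0.6 through 1.39% and 0.540% to 1 of 852 regions (0.117%) at 0.8 and over. Within 1 Mb bins it was lower than that of the other CHG gains in all 375 bins. In the 418 regions, the median CG level of the gain was 0.809 in M.CviP I DNA and 0.260 in CK DNA. A CHH gain and no CG gain was the most frequent combination, with 96.5% of the heavily CHG-methylated gains against 66.0% of all CHG gains. The CG gain and the CHG level come from the same contrast and the same libraries as the choice of these regions. A CG gain can be called only where the CG level in CK DNA leaves room for a rise of at least 0.1. That level is known only for regions on the list of CG gains, and its part in the low share was not tested.

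CG losses after zebularine, from a separate pair of libraries that had no part in the choice, were frequent at them. A shared base with a CG loss was found for 12739 (68.1%, interval 67.5 to 68.8), against a background of 17.0% over all CHG gains, 39.3% of the gains with a CK level of 0.2 to under 0.5, 15.6% of those with 0.05 to under 0.2 and 9.95% of those under 0.05. A CG loss can be called only where the CG level in DMSO CK DNA allows a fall of at least 0.1. The shares therefore also depend on the CG level of each set before zebularine, which is known only for regions on the list of losses. The part of that level in the contrast was not tested. The median CG level of the losses at the heavily CHG-methylated gains was 0.809 in zebularine DNA and 0.957 in DMSO CK DNA. Their median difference of -0.145 was smaller in size than that of -0.207 at gains with a CHG level under 0.05 in CK.

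Longer regions have more bases to share, so the CG losses were also compared by length in 2 comparisons added after seeing the data. Among regions of at least 450 bp, 73.9% of the heavily CHG-methylated gains shared a base with a CG loss, against 44.8% of gains with a CK level of 0.2 to under 0.5 and 16.0% of those under 0.05. Counted by bases, CG losses covered 46.7% of the heavily CHG-methylated gains, 23.8% of the intermediate ones and 4.99% of those under 0.05. In bins of 1 Mb the share with a CG loss was higher than that of the other CHG gains in all 375 bins, by a median of 50.8 percentage points, and higher than that of the intermediate gains in 370 of 375. Among the bands within the heavily CHG-methylated gains, the share was 62.8%, 69.7%, 72.4% and 67.6% in order of CK level, and the last, of 852 regions, had an interval of 64.4 to 70.7.

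**Figure D4:**
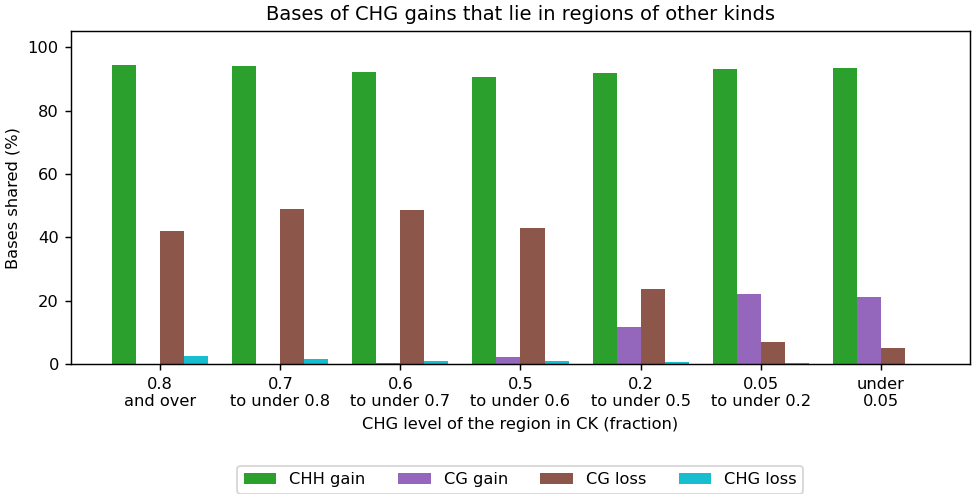
Percent of the bases of CHG gains (y axis) that lie in CHH gains (green), CG gains (purple), CG losses (brown) and CHG losses (cyan), by the CHG level of the region in CK (x axis, highest band at the left). The 4 bands at the left are the heavily CHG-methylated gains, where CG losses together cover 46.7% of the bases and CG gains 0.927%, against 4.99% and 21.3% in the band under 0.05 at the right.

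CHG losses after zebularine were few in all, 3868 regions. A shared base was found for 341 of the heavily CHG-methylated gains (1.82%, interval 1.64 to 2.03), against a background of 0.319% over all CHG gains. The share was 0.959% at a CK level of 0.2 to under 0.5, 0.580% at 0.05 to under 0.2 and 0.0690% under 0.05. A CHG loss can be called only where the CHG level in DMSO CK DNA allows a fall of at least 0.1. The shares therefore also depend on the CHG level that set the bands, and its part was not tested. These 341 had a median CHG level of 0.590 in zebularine DNA and 0.776 in DMSO CK DNA, and of 0.878 in M.CviP I DNA and 0.681 in CK DNA. For these 341 alone, a CHG level is also known in a control library that was not used to choose the regions. In DMSO CK DNA, 334 of the 341 had a level of at least 0.5, and across them both CK levels had a Pearson r of 0.677 and a Spearman rho of 0.706. The level in DMSO CK was known only for regions on the list of losses, where a region needs a level from which it can fall by at least 0.1. It is therefore no check of the heavily CHG-methylated gains without a CHG loss. CHH losses shared a base with 169 of the heavily CHG-methylated gains (0.904%), against a background of 0.371% over all CHG gains. At a CK level of 0.2 to under 0.5 the share was 1.13%, above that of the heavily CHG-methylated gains. It was 0.877% at 0.05 to under 0.2 and 0.156% under 0.05. The CHH losses at the 169 regions had a median CHH level of 0.0497 in zebularine DNA and 0.191 in DMSO CK DNA.

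Along the 12 chromosomes, heavily CHG-methylated gains were densest where CHG gains as a whole were sparse. There were 50.1 per Mb over 373 Mb, with chromosome lengths taken from the largest position in the lists. Chromosomes 1 and 3 had the lowest density, 37.7 and 37.8 per Mb, and chromosomes 12 and 8 the highest, 58.8 and 58.7 per Mb. All CHG gains were densest on chromosome 3, with 889 per Mb, and sparsest on chromosome 11, with 674 per Mb. Thus the heavily CHG-methylated gains made up 8.61% of the CHG gains of chromosome 12 (interval 8.21 to 9.01) and 4.25% of those of chromosome 3 (4.03 to 4.47).

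In 368 full bins of 1 Mb, the number of heavily CHG-methylated gains ranged from 11 to 188 with a median of 44. The densest bin, 13 to 14 Mb of chromosome 8, held 188 among 451 CHG gains (41.7%). It was followed by 19 to 20 Mb of chromosome 3 with 158 of 403 (39.2%) and 10 to 11 Mb of chromosome 4 with 158 of 339 (46.6%). Of the 12 densest bins, 4 were on chromosome 4, all between 5 and 13 Mb. The densest bin of most chromosomes was in their middle part, between 29.6% and 53.6% of the length, with chromosome 9 as the exception, where it was at 10.9%, or 2 to 3 Mb. At the outer 5% of the chromosomes the mean density was 35.0 per Mb, against 52.8 per Mb in the rest, whereas all CHG gains had 937 per Mb in the outer parts and 731 per Mb in the rest. The first 5% of chromosomes 4, 9 and 10 went against this, with 83.9, 70.4 and 74.1 heavily CHG-methylated gains per Mb, and with 625, 521 and 581 CHG gains per Mb in all. The position of the centromeres and of transposons on MSU7.0 was not used here.

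**Figure D5:**
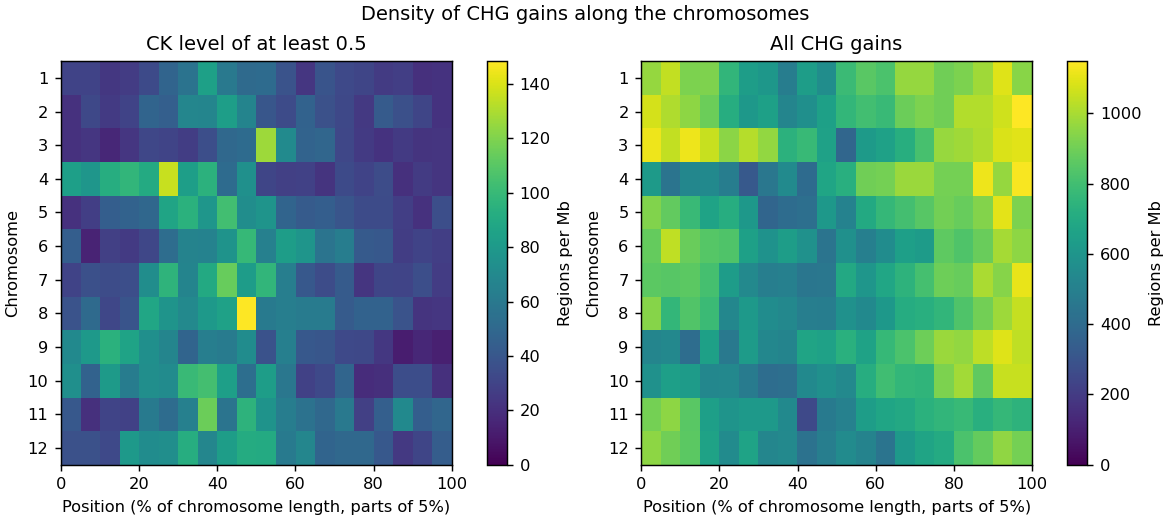
Density per Mb (colour, scale from 0 in each panel) of the CHG gains with a CK level of at least 0.5 (left) and of all CHG gains (right) in 20 equal parts of each of the 12 chromosomes (y axis), by position in percent of chromosome length (x axis). The left panel is brightest in the middle parts, as on chromosomes 3, 4 and 8, and in the first parts of chromosomes 4, 9 and 10, whereas the right panel is brightest towards the ends, except for the first parts of the same chromosomes 4, 9 and 10.

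Uneven as it was, the density was not confined to a few places. The densest 37 bins held 21.1% of the heavily CHG-methylated gains in full bins, and 110 bins (29.9%) were needed to hold 50%. The same 37 bins held 6.50% of all CHG gains, 4.68% of those with a CK level under 0.05 and 16.25% of CG losses. As the bins were ranked by the heavily CHG-methylated gains themselves, part of their excess there is built in. Across the 368 bins, the number of heavily CHG-methylated gains had a Spearman rho of -0.867 with the number of all CHG gains, of -0.889 with that of gains with a CK level under 0.05 and of 0.919 with that of CG losses after zebularine. The rho with CHH gains was 0.360. Bins share libraries, base composition and neighbours, and these values describe the map only.

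Several features of the heavily CHG-methylated gains differed with the density of their bin. In the 94 sparsest bins, with 11 to 29 such gains each, the median CHH level in CK was 0.0719 and 29.4% had 0.1 or more, while 56.0% shared a base with a CG loss and 5.48% with a CG gain. In the 91 densest bins, with 70 to 188 each, the CHH level was 0.0465 and 6.63% had 0.1 or more, while 73.3% shared a base with a CG loss and 1.07% with a CG gain. CG losses in general were more numerous in bins with more heavily CHG-methylated gains (Spearman rho 0.919), and CG gains less numerous (rho -0.8375). The same shares over all CHG gains were not taken by bin density. Whether the trends in CG loss and CG gain are particular to the heavily CHG-methylated gains was therefore not tested. CHG levels hardly differed between the sparsest and densest bins, with 0.873 and 0.874 in M.CviP I DNA and 0.645 and 0.660 in CK DNA. The median lengths were 468 and 479 bp. Between chromosomes the order held only in part. The median CHH level in CK was 0.0605 on the sparsest chromosomes, 1 and 3, and 0.0473 and 0.0474 on the dense chromosomes 4 and 12, but 0.0523 on chromosome 8, above the 0.0508 of the less dense chromosome 9.

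Most heavily CHG-methylated gains had no other one within 100 bp. The median distance to the nearest other one was 2767 bp (quartiles 527 and 9799). Another lay within 100 bp of 3118 (16.7%) and within 1000 bp of 33.5%. A CHG gain of any CK level lay within 100 bp of 24.1% of them, near the background of 26.15% over all CHG gains. When those within 100 bp were joined, 16991 runs were left, of which 15579 had 1 region, 1200 had 2 and 212 had 3 or more. The 3 longest runs each had 6 regions. They were at chromosome 8, 13676179 to 13679311, with CHG levels of 0.818 to 0.899 in M.CviP I DNA and 0.607 to 0.769 in CK DNA, at chromosome 5, 12632915 to 12635939, with 0.777 to 0.895 and 0.582 to 0.730, and at chromosome 5, 9202987 to 9205989, with 0.902 to 0.959 and 0.638 to 0.817. The first lay in the densest bin of all.

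Where another CHG gain lay within 100 bp, it was usually heavily methylated as well. Neighbours were counted for each gain they lay next to, so a region between others was counted repeatedly. Of 4940 such counts, 69.1% had a CK level of at least 0.5 and 5.22% had a level under 0.05. Counted in the same way, 74.2% of the CHG gains with any CHG gain within 100 bp had a level under 0.05. The median CK level over the 4940 counts was 0.628. In all, the heavily CHG-methylated gains covered 7.92 Mb, or 2.12% of the chromosome length, against 25.05% for all CHG gains.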

How the data were processed

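The data were 2 deposited lists of differentially methylated regions in rice. According to the methods, the authors used Fastp for trimming and Bismark (version not given in the sources used here) for mapping to MSU7.0, counted uniquely mapped reads at positions with at least 3 reads and called regions with CGmapTools at a p-value under 0.01 and a difference of at least 0.1. Deposited levels are a fraction per region and library. The deposited p-value is unadjusted and compares cytosines, not replicates, so a low value is no evidence for the treatment. The depth per cytosine is unknown. The lists have no header, and the treated and CK columns were identified from the direction each list is named for.

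Regions were selected by context and CK level and overlapped from 1 shared base. Levels of whole overlapping regions were averaged with the shared bases as weights. Python 3.11.15 with numpy 2.4.6, pandas 2.3.3, scipy 1.17.1 and matplotlib 3.10.9 was used, and overlaps were tested on simulated data with known answers. The members, bands and comparisons were chosen with earlier results of these data known. Regions named in the text had at least 20 cytosines and the largest difference, CHG level in CK or CHH level in CK, or were nearest to 0.5, and runs were named by number of regions. Without the MSU7.0 genome and its annotation, GpC content, genes and transposons were not analysed here. The authors' t statistic and difference were not used. Alternatives were other cutoffs of CK level, p-value, difference and cytosines, another overlap, joining, means and smaller bins.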

Additional observations from a re-analysis of the deposited data

How the results depend on the processing

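No paired analysis was possible because the 4 libraries have no replicates. Under the alternatives, 35 of 47 values moved beyond their counting interval or, for counts, by over 1.5 times. The number of regions was 5389 at a p-value under 0.001 and 10039 at a difference of at least 0.2. The median length was 480 bp at a CK level of at least 0.6, 482 bp at a p-value under 0.001, 461 bp at a difference of at least 0.2 and 478 bp at 10 or more cytosines, and its mean was 423.7 bp. The share with a CHH gain was 99.0% at a CK level of at least 0.6, 98.9% at a p-value under 0.001, 97.6% at a difference of at least 0.2, 99.1% at 10 or more cytosines, 96.5% when 50% of the region had to be shared and 99.9% from 450 bp, and by bases it was 92.4%. The share with a CG gain was 0.956% at a CK level of at least 0.6, 2.65% at a p-value under 0.001, 3.46% at a difference of at least 0.2 and 0.813% when 50% had to be shared, and by bases 0.927%. The share with a CG loss was 70.7% at a CK level of at least 0.6, 65.1% at a difference of at least 0.2, 68.9% at 10 or more cytosines, 48.5% when 50% had to be shared and 73.9% from 450 bp, and by bases 46.7%. The share with a CHG loss was 2.13% at a p-value under 0.001, 1.32% at a difference of at least 0.2 and 1.38% when 50% had to be shared, and by bases 1.35%. The median CHH level in CK was 0.0528 at a CK level of at least 0.6, 0.0502 at a p-value under 0.001, 0.0526 at a difference of at least 0.2 and 0.0501 from 450 bp. Its mean was 0.0650, and its median was 0.0507 when each CHH gain was counted once. The difference in median CHH level in CK from gains with a CHG level of 0.2 to under 0.5 was -0.000627 over all regions and 0.000287 within 1 Mb bins. The cause of these shifts was not tested. The restriction to 450 bp, the count by bases and the bins of 1 Mb as strata were added after seeing the data.

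With 1 library per condition and an unknown depth per cytosine, the precision of a single level cannot be given. Regions that had no p-value under 0.01 are not in the lists, so CHG-methylated DNA without a called gain was not compared.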
